A study of Saccharomyces cerevisiae with 66 samples.

Results

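MTAC (methyltransferase targeting-based chromosome architecture capture) tethers the bacterial methyltransferase M.CviPI, joined to LacI, at a LacO array inserted at a chosen viewpoint (VP), so that GC dinucleotides in open DNA near the array become methylated and can be recovered with an antibody against 5-methylcytosine (MeDIP) and sequenced. The data described here are those of the *MAT* VP in MATα cells given galactose and then glucose, the treatment that drives mating-type switching (MATα G). Their members are all nucleosome-depleted regions (NDRs, mostly promoters) of the table that compares MATα G with its control strain, 4828 of the 4828 NDRs in the series. The targeted strain carries 256 copies of LacO with a HIS3 marker at TAF2, the gene next to *MAT*, and the control (Ctrl_alpha) has no LacO. Both are MAT-alpha cells with ade2-1, can1-100, ura3-1, trp1-1, his3-11,15 and a mutant allele of the *LEU2* gene, both carry at ADH1 the LacI-SV40NLS-M.CviPI fusion under 2xlexO-GAL1corepr together with LexA-ERHBD-VP16AD under the ADH1 promoter and a LEU2 marker, and both carry GAL10pr-HO::URA3 at the *GAL10* promoter. Cells grew in raffinose, were given galactose to express the HO endonuclease and then glucose to stop it, with 2 nM β-estradiol throughout to express the fusion. The labels give 2 h of induction, whereas the study's methods describe a longer treatment that adds the time in glucose. Each group had 2 libraries. MATα D, used here for comparison, is the same pair of strains kept in glucose, and MATa G and MATa D are the corresponding pairs of MATa strains with the same constructs. The other 17 tables of the series have the array at another VP, come from MATa strains without the HO construct and had no galactose step. Some of them, all at the YBP2 VP, were induced for less than 2 h, and most of those had fewer than 256 LacO copies. Those at the TRP2 VP came from cells with methionine in one table and without it in another.

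Budding yeast switches mating type when HO cuts *MAT* and the break is repaired from a silent copy on the same chromosome, HML near the left end, which holds α sequence, or HMR near the right end, which holds a sequence. The cassette at *MAT* sets the mating type, because the α1 and α2 proteins, made from one divergent promoter, turn on α-specific genes and repress a-specific genes. The recombination enhancer (RE), between *KAR4* and *SPB1* on the left arm, is known for steering MATa cells to HML as the donor, and is silenced by α2 in MATα cells. Cells given HO for a limited time can be a mixture of both mating types and of cells whose break is still open, and the measurements below average over whatever mixture was present.

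The quantity used throughout is the base mean, the authors' mean over the targeted and the control libraries of a table of the reads per NDR after division by size factors. It holds no value per library, so it has no error here and no difference below carries a test or a p-value. A signal that only the array brings is diluted in it by the control libraries. The authors normalised every table separately, and each was therefore rescaled to MATα G by the median ratio of NDRs, so levels set side by side across tables rest on that scaling. Ratios are log2 values after adding a pseudocount of 1, taken over NDRs at which the mean of both levels is at least 10 (the minimum level), and an NDR is counted as past the threshold at 2-fold. In MATα G the median base mean was 15.7, the highest was 1365, 1726 of the 4828 NDRs lay under 10 and 3 were at 0. The medians of the deposited tables were 17.7 in MATα D, 32.0 in MATa G, 23.6 in MATa D and 18 to 49.5 in the other 17. The spread of those 17 tables stands in for an error below. They share control libraries and are not replicates, and they differ from MATα G in mating type, HO construct and culture as well as in the array, which cannot be told apart. Among themselves they also vary in induction time, number of LacO copies and methionine.

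The sequences that the results turn on are 200 bases from the start of an NDR on the plus strand of the RefSeq R64 assembly (the sacCer3 genome), with every GC, the site of M.CviPI, in capitals. The first lies between *MATALPHA2* and *MATALPHA1*, the second begins just past the end of *KAR4* and runs into RE, the third is the strongest NDR beside the array, and the last is the promoter of *GAL7*, whose base mean differed most between MATα G and MATα D on the high side.
MAT α promoter, chrIII:200208-200407: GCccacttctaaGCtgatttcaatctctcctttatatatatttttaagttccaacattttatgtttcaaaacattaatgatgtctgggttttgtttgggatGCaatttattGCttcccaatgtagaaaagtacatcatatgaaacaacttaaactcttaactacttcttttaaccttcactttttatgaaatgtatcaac
RE, chrIII:28977-29176: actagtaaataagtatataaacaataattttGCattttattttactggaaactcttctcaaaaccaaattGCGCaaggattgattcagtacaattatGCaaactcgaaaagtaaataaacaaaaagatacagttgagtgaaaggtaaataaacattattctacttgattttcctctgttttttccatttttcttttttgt
YCR043C promoter, chrIII:206679-206878: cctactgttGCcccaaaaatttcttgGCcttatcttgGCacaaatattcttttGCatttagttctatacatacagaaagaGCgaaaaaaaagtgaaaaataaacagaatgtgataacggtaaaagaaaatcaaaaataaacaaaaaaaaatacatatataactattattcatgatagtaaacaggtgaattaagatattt
GAL7 promoter, chrII:275649-275848: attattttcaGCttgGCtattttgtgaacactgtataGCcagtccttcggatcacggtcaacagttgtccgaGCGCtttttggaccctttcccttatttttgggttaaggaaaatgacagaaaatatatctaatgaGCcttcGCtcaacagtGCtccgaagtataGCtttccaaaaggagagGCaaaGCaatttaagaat
They hold 4, 4, 5 and 11 GC sites in that order, against a median of 7 over all NDR windows of this length, of which 99.6% hold at least 1. The same window of HML, chrIII:13048-13247, is identical to that of *MAT* in all 200 bases, so reads from this stretch of the 2 loci could not be told apart by sequence. NDRs with more sites had higher base means in MATα G, from a median of 7.30 at 0 to 2 sites (268 NDRs) to 76.9 at 13 or more (355 NDRs). Over all 4828 NDRs, which share libraries and base composition, Spearman's correlation of the number of sites with the base mean was 0.495.

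Signal next to the array was high in MATα G, and most of the high NDRs lay to its right. The strongest NDR lay 3.39 kb to the right of the midpoint of TAF2, in the promoter of *YCR043C*, with a base mean of 678 in MATα G, 979 in MATα D, 407 in MATa G and 838 in MATa D. In the 17 tables with the array elsewhere it ran from 24.6 to 45.8, so all 4 MAT tables stood apart from every one of them. The ratio of MATα G to the median of the 17 was 22.6-fold, the highest of any NDR in the table. *BUD23* and *ARE1*, a methyltransferase of the small ribosomal subunit and a sterol acyltransferase, share the NDR at 8.34 kb, which had 302 in MATα G, 359 in MATα D and 67.8 to 111 in the 17. At 7.17 kb, the NDR of *IMG1*, a mitochondrial ribosomal protein, had 86.0 in MATα G, 120 in MATα D and 16.8 to 26.4 in the 17. The NDR of *PER1*, at 4.68 kb, was at 20 and 21.8 against 5.02 to 15.1. All 4 of these right-hand NDRs were therefore above every table with the array elsewhere.

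On the left, toward *MAT*, the values within 10 kb were closer to the other tables. The NDR of the phosphate transporter gene *PHO87*, 6.05 kb away, had 16.1 in MATα G, 14.1 in MATα D and 8.27 to 14.6 in the 17. The NDR inside TAF2, 0.727 kb from its midpoint, had 51.5 in MATα G and lay inside their range of 44.5 to 68.2, whereas MATα D had 91.3 and was above it. The NDR at the start of TAF2, 2.15 kb to the right, had 3.10 and that of *RBK1*, 9.02 kb to the left, had 9.99, both under the minimum level. Farther out the left side held 2 strong NDRs, that of *ELO2*, a fatty acid elongase, at 13 kb with 107 against 35.0 to 59.2, and that of *RPS14A*, a ribosomal protein, at 25 kb with 151 against 50.6 to 85.9. On the right the NDRs of *YIH1*, *TAH1* and *TVS1*, at 21 to 22.0 kb, had 164, 36.5 and 127 against highest values of 56.4, 18.6 and 36.1.

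Local NDRs, within 30 kb, numbered 30, of which 22 reached the minimum level. Of these, 14 (63.6%) were above all 17 tables and 2 were below all of them, against 730 of 3351 (21.8%) above and 954 (28.5%) below over the whole table. At 2-fold against the median of the 17, 11 local NDRs were higher and 0 lower, where the whole table had 104 (3.10%) and 164 (4.89%). The median local ratio was 0.97 on the log2 scale, or 1.96-fold, and each of the 17 tables against the others gave a local median between -0.14 and 0.05. By distance on both sides, the 3 NDRs within 5 kb had a median of 0.93 and the 3 at 5 to 10 kb one of 1.93. The median was then 1.01 over 5 NDRs at 10 to 20 kb, 0.42 over the next 11 (up to 30 kb), 0.44 over 12 up to 50 kb and -0.07 over 25 up to 100 kb. On the right alone they were 1.99 within 10 kb and 1.32 at 10 to 30 kb, with 4 of 4 and 6 of 8 NDRs above all 17 tables. On the left they were 0.17 and -0.07, with 1 of 2 and 3 of 8.

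**Figure D1:**
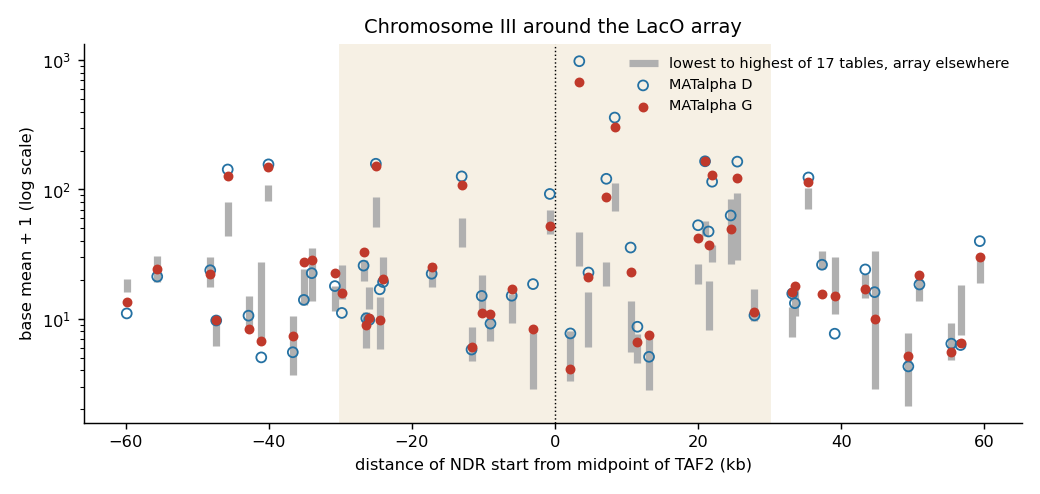
Base mean plus 1 (log scale) of each NDR against its distance from the midpoint of TAF2 in kb, for MATα G (filled), MATα D (open) and the range of the 17 tables with the array elsewhere (grey bars), with the 30 kb zone shaded. The NDR at 3.39 kb reaches 678 in MATα G, and most points to the right of TAF2 lie above the grey bars.

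Local signal was lower in MATα G than in MATα D at most NDRs. Of the 22 local NDRs at the minimum level in that comparison, 15 were lower, 6 were higher and 1 was equal, with a median of -0.29. Among the lower ones, the α promoter at *MAT* (7.40 in MATα G and 17.6 in MATα D) and an NDR at *SNR189* (8.77 and 15.9) reached the minimum only through MATα D, where they are high. Of all 3142 NDRs 48.7% were higher, and their median was -0.01. None of the 15 was past 2-fold except the α promoter at *MAT*, which was not with a pseudocount of 5 (-0.86). The same comparison in MATa cells gave 22 of 22 lower and a median of -0.66. The median local ratio to the 17 tables was 0.97 in MATα G and 1.16 in MATα D over the NDRs at the minimum level in each, and 0.29 and 1.16 in MATa G and MATa D. The 2 mating types had the same local median in glucose, and galactose cells had the lower one in both.

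Beyond 30 kb, chromosome III held 67 NDRs at the minimum level, with 23 (34.3%) above all 17 tables, 19 (28.4%) below and a median ratio of -0.05. Other chromosomes together had 21.2% above and a median of -0.07. By chromosome, the share above all 17 tables was 41.6% on III as a whole and 12.6% to 27.7% on the others. The far NDRs of chromosome III with the highest ratios lay 79.8 kb to the left of TAF2, at the tRNA gene *SUF2* (181 in MATα G, 212 in MATα D and 54.0 to 78.1 in the 17), and 45.7 kb to the left, at *HSP30*, a plasma membrane stress protein (125, 142 and 42.6 to 79.1). Both were as high without switching as with it. Over all chromosomes, distance from the centromere made little difference to the ratio to the 17 tables, with medians of 0.03 under 10 kb and -0.07 over 100 kb. Against MATα D, 64 of 92 NDRs under 10 kb were lower and 28 higher, with a median of -0.12. Of all NDRs 48.7% were higher in that comparison, and their median was -0.01.

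The α promoter of the mating-type cassettes was among the NDRs that differed most between MATα G and MATα D. At *MAT* its base mean was 17.6 in MATα D and 7.40 in MATα G, a log2 ratio of -1.14, and at HML it was 17.6 and 6.66, a log2 ratio of -1.28. With a pseudocount of 5 these ratios were -0.86 and -0.95, neither past 2-fold. MATa cells had 2.15 in glucose and 5.27 after galactose at *MAT*, and 2.92 and 4.08 at HML, and the 17 tables had 1.88 to 6.74 and 0.988 to 7.01. MATα D was thus above every other table at both loci, whereas MATα G lay just above the 17 at *MAT* and inside their range at HML. The windows being identical, the 2 loci do not give independent values. The assembly holds α sequence at *MAT*, whereas MATa cells that have not switched hold a sequence there. In MATa D and the 17 tables, the values at *MAT* are therefore not those of an α promoter at *MAT*. Reads from HML can be placed there. MATα and MATa tables thus also differ in the number of copies of this window, which cannot be told apart from a difference per copy. MATα G may differ from MATα D in copies as well, because cells that switched hold a sequence at *MAT* and α sequence only at HML. The share of switched cells is not in the values used, so this was not tested. The levels are low: the mean of MATα G and MATα D reached the minimum of 10, and MATα G by itself did not. HMR had NDRs near *HMRA2* and *HMRA1* with 3.41 and 1.97 in MATα G and 4.64 and 4.15 in MATα D, all under the minimum. Past HMR, at the tRNA gene YNCC0014W that bounds its silent chromatin, the nearer NDR had 6.35 in MATα G and 8.08 in MATα D. Both were under the minimum and inside the range of 2.88 to 10.0 in the 17. The farther NDR there had 42.2 in MATα G, 58.0 in MATα D and 24.8 to 31.9 in the 17.

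RE was lower in both MATα tables than in any table from MATa cells. The NDR begins 131 bases before the annotated RE and its base mean was 35.9 in MATα G and 40.7 in MATα D, against 133 in MATa G, 168 in MATa D and 47.4 to 124 in the 17. The log2 ratio of MATα G to MATα D was -0.18, smaller than the SD of 0.303 over all NDRs. The promoter of *KAR4*, a transcription factor of the mating response, had 28.6 in MATα G, 19.8 in MATα D, 35.5 in MATa G, 50.9 in MATa D and 9.73 to 21.9 in the 17. MATα G was above that range and MATα D inside it. The NDR of *SPB1*, on the other side of RE, had 3.07 in MATα G and 4.97 in MATα D.

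**Figure D2:**
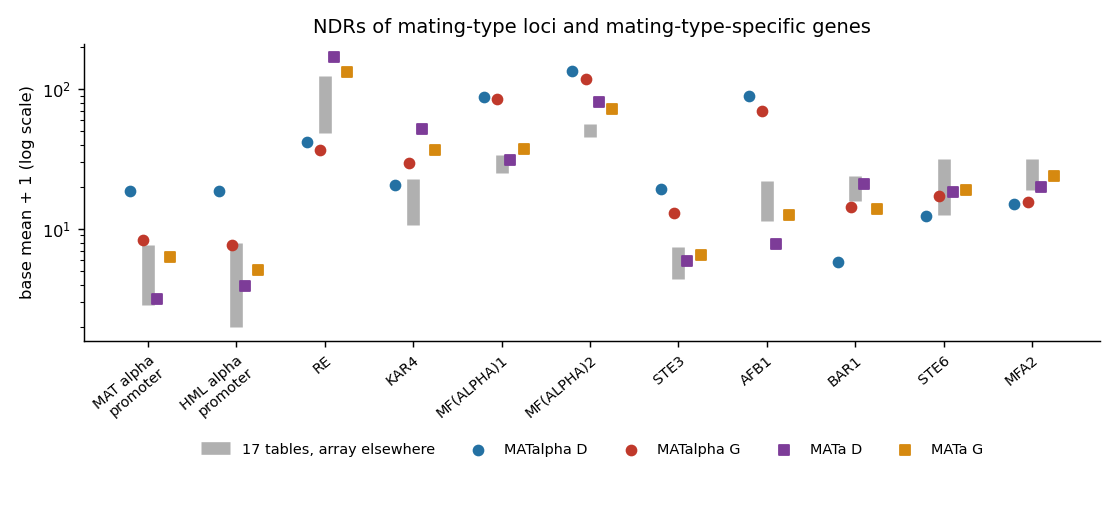
Base mean plus 1 (log scale) at NDRs of the mating-type loci and of α-specific and a-specific genes, for MATα D, MATα G, MATa D, MATa G (points) and the range of the 17 tables with the array elsewhere (grey bars). The α promoters are high only in MATα D (17.6), whereas MF(ALPHA)1 stands above the grey bar in MATα D and MATα G alike (87.7 and 84.6).

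Genes known to be α-specific had higher levels in both MATα tables than in tables from MATa cells, apart from *SAG1*. *MF(ALPHA)1*, the main α-factor gene, had 84.6 in MATα G, 87.7 in MATα D, 36.7 in MATa G, 30.0 in MATa D and 24.3 to 33.0 in the 17. *MF(ALPHA)2*, the minor one, had 118, 134, 70.8, 80.2 and 44.4 to 55.7, at an NDR nearer to the starts of YGL088W and *SNR10*. *AFB1*, which encodes an α-cell barrier to a-factor and was not on the list, had 69.4, 89.2, 11.7, 6.85 and 10.4 to 20.9. At all 3, both MATα tables were above every table from MATa cells. *STE3*, the a-factor receptor, had 12 in MATα G and 18.3 in MATα D against 3.42 to 6.42, but was under the minimum level for the comparison of MATα G with the 17. *SAG1*, the α-agglutinin, was under the minimum at 6.03 and 4.80. The 3 listed α-specific NDRs at the minimum level for MATα G against MATα D were all lower in MATα G, where 48.7% of all NDRs were higher. Their log2 ratios were -0.05, -0.18 and -0.57, beside an SD of 0.303 over all NDRs, and none was past 2-fold.

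Genes known to be a-specific differed by less than 2-fold between MATα G and MATα D where their level allowed the comparison. Of 8 NDRs of the list, 4 were at the minimum level, 3 of these were higher, where 48.7% of all NDRs were, and none was past 2-fold. Their log2 ratios ran from -0.06 to 0.49, with a median of 0.24. *STE6*, the a-factor exporter, had 16.3 in MATα G, 11.4 in MATα D and 11.7 to 30.9 in the 17. *BAR1*, the protease that degrades α-factor, had 13.4 in MATα G and 4.84 in MATα D at its promoter, against 14.9 to 22.9 in the 17, 13 in MATa G and 19.9 in MATa D. That NDR was under the minimum for the comparison with MATα D, and its log2 ratio there was 1.30. *MFA2*, an a-factor gene, had 3.34 and 3.99 at the NDR nearest its start, under the minimum. A second NDR, nearer to the starts of YNL146C-A and YNL146W, had 14.6 and 14, both under the range of 18.1 to 30.8. *MFA1*, the other a-factor gene, had 12.7 and 9.26 at the NDR nearest its start, against 6.72 to 13.2. A second NDR, nearer to the starts of *CMI8* and *MRPL28*, had 25.3 and 26.3, inside the range of 22.5 to 32.1.

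A second NDR at *BAR1* gave one of the few values past 2-fold. It starts 65 bases before the end of the gene and 334 bases before the far end of a tRNA gene, YNCI0008C, on the other side, and its base mean was 54.1 in MATα G, 26.0 in MATα D, 144 in MATa G and 57.7 in MATa D, against 20.7 to 35.3 in the 17. The log2 ratio of galactose to glucose cells was 1.03 in MATα and 1.30 in MATa. It was the 1 NDR at least 2-fold higher in both mating types, and with a pseudocount of 5 there was none, its ratio in MATα being 0.93.

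Over the whole table, MATα G and MATα D were close. At 2-fold, 6 of 3142 NDRs (0.191%) were higher in MATα G and 15 (0.477%) were lower. These counts depend on the settings: they were 2 and 6 with a pseudocount of 5, and 34 and 86 with no minimum level. The NDRs that stayed past 2-fold with a pseudocount of 5 were those of *GAL7* and *ATG17* on the high side and, on the low side, those of *CRN1*, YBL100W-B, one near *TUS1* and 3 at *ARC35* and *MRPS12*. In MATa cells the same comparison gave 34 of 3364 (1.01%) and 15 (0.446%). Most of the MATα NDRs past 2-fold had low levels. Among the 1073 NDRs with a mean of 10 to 20 there were 4 higher and 9 lower, among the 515 at 50 to 100 there were 0 higher and 2 lower, and among the 456 at 100 or more there was none in either direction. The SD of the log2 ratio narrowed over these classes from 0.37 to 0.20.

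The NDR with the largest difference on the high side was that of *GAL7*, the galactose-1-phosphate uridylyltransferase, 122 bases from the start of the gene. It had 58.7 in MATα G and 16.4 in MATα D, a log2 ratio of 1.78, and 32.4 in MATa G, 24.1 in MATa D and 16.9 to 28.2 in the 17. MATα G alone stood well above the others. Next were the NDRs of *ATG17*, an autophagy scaffold, with 21.5 in MATα G and 7.87 in MATα D (1.35), one near YIL163C with 21.9 and 8.77 (1.23), one near *GTT1* with 14.9 and 6.14 (1.15) and that of *BRO1*, an endosomal sorting protein, with 15.4 and 6.56 (1.12). At *ATG17*, YIL163C and *BRO1*, MATα G lay inside the range of the 17 tables and MATα D below it. The other 4 NDRs among the 10 highest were just under 2-fold, those of *HXT6*, *RHB1*, *RSA4* and *CSR2* (0.97 to 0.99). At *ATG17*, YIL163C, *GTT1*, *BRO1*, *RSA4* and *CSR2*, MATα D by itself was under 10. These NDRs reached the minimum level only through MATα G, the group where they are high.

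On the low side, the largest difference was at *CRN1*, the yeast coronin, with 4.25 in MATα G, 17.4 in MATα D and 7.49 to 15.5 in the 17 (-1.81). Of the 10 lowest NDRs, 3 were neighbours on chromosome XIV at *ARC35* and *MRPS12*, an actin-nucleating complex subunit and a mitochondrial ribosomal protein. They had 14.3, 28.7 and 50.2 in MATα G and 36.8, 66.0 and 110 in MATα D, against highest values of 14.8, 17.1 and 29.6 in the 17 and 8.59, 12.1 and 21.4 in MATa G. MATα D was therefore above all MATa tables at all 3, and MATα G above them at 2 of the 3. The others were the α promoters at *MAT* and HML, a Ty element at YBL100W-B (16.9 and 42.0, -1.26), NDRs near *DBP2* (8.22 and 20.2, -1.20) and at *VMA22* (6.52 and 16.1, -1.18) and YLR126C (9.56 and 22.9, -1.18). At *CRN1*, *DBP2*, *VMA22*, YLR126C and both α promoters, MATα G by itself was under 10. These NDRs reached the minimum level only through MATα D, the group where they are high. The NDR near *DBP2* was the 1 NDR at least 2-fold lower in both mating types, with 23.5 in MATa G and 57.3 in MATa D, and in MATα it was under 2-fold with a pseudocount of 5 (-0.93).

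**Figure D3:**
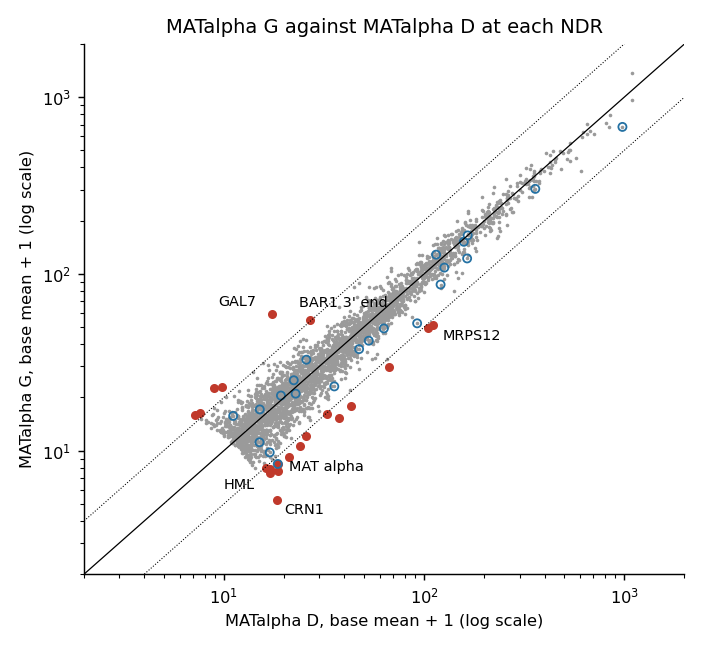
Base mean plus 1 in MATα G against MATα D for the 3142 NDRs at the minimum level (both axes log scale), with equality (solid) and 2-fold (dotted) lines, the NDRs past 2-fold filled and the local NDRs ringed. The 6 NDRs above and the 15 below the dotted lines lie mostly at low levels, and the ringed points fall mostly under the solid line.

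The galactose genes were listed as a check of the treatment. Of 10 NDRs at the minimum level, GAL7 alone was past 2-fold, 4 were higher and the median was -0.02. Over all NDRs, 0.191% were at least 2-fold higher, 48.7% were higher and the median was -0.01, so the list as a set was close to all NDRs. *GAL2*, the galactose permease, had 12.3 in MATα G and 2.15 in MATα D at one NDR, and 15.5 in MATa G and 3.10 in MATa D. That NDR was under the minimum, with log2 ratios of 2.08 and 2.01. Its neighbour had 19.4 and 12.5 in MATα (0.59). The regulators *GAL3*, *GAL80* and *GAL4* had log2 ratios of -0.03, -0.04 and -0.09. The shared promoter of *GAL10* and *GAL1* had 380 in MATα G, 604 in MATα D, 269 in MATa G, 396 in MATa D and 93.7 to 118 in the 17, so it was higher in all 4 MAT tables than in any other and lower in galactose cells in both mating types (-0.67 and -0.56). This promoter, *HO* and URA3 each have a further copy in the HO construct. *HO* had 158 in MATα G and 231 in MATα D against 52.0 to 97.6, and the NDR at the start of URA3 had 79.4 and 140 against 23.1 to 45.9. At all 3, in both mating types, glucose cells had the highest level, galactose cells came next and the 17 tables were lowest.

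Hexose transporters had the highest median of the gene lists. Of 12 NDRs, 8 were higher in MATα G, against 48.7% of all NDRs, none was past 2-fold and the median was 0.37, with *HXT6* at 30.2 and 14.7 (0.99), *HXT7* at 83.3 and 43.5 (0.92), *HXT8* at 19.4 and 10.2 (0.87) and *HXT4* at 151 and 92.8 (0.70). *HXT1*, the low-affinity transporter used in high glucose, had log2 ratios of -0.12 and -0.02 at its 2 NDRs. *HXT6* and *HXT7*, nearly identical high-affinity transporters, may share reads. In MATa cells the transporter list had a median of 0.12, with 6 of 11 NDRs higher, against 51.8% of all NDRs, and 1 past 2-fold. Glucose-repressed genes had 9 of 12 NDRs higher, beside the same 48.7%, and a median of 0.09, with *HXK1* at 0.63 and *JEN1*, a lactate permease, at 0.51. In MATa cells these 2 genes had 1.67 and 1.32.

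The remaining lists are given beside the median of all NDRs, -0.01, and the 48.7% of all NDRs that were higher in MATα G. The strain markers had a median of -0.52 over 3 NDRs, with URA3 at -0.81 and -0.52 and LEU2 at 0.26, and the NDR of HIS3 was under the minimum. Damage response genes had 8 of 12 NDRs higher and a median of 0.06, from -0.65 at *RFA1*, a subunit of the single-stranded DNA binding complex, to 0.62 at *RNR1*, the large subunit of ribonucleotide reductase. Recombination genes had 3 of 3 higher, at *RAD52*, *SGS1* and *XRS2* (0.23, 0.21 and 0.12). Haploid-specific and mating pathway genes had a median of 0.04 over 11 NDRs, glycolysis genes -0.03 over 11, heat shock genes -0.03 over 8, ribosomal protein genes 0.01 over 156, seripauperin genes 0.05 over 28 and tRNA genes -0.03 over 254. Among the histone genes 1 of 6 NDRs was past 2-fold, that of *HTB1*, with 11.1 in MATα G, 24.6 in MATα D and 23.0 to 56.4 in the 17 (-1.08, and -0.88 with a pseudocount of 5). The tRNA list held 1 NDR past 2-fold on each side, of which the high one is the NDR at the end of *BAR1*.

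**Figure D4:**
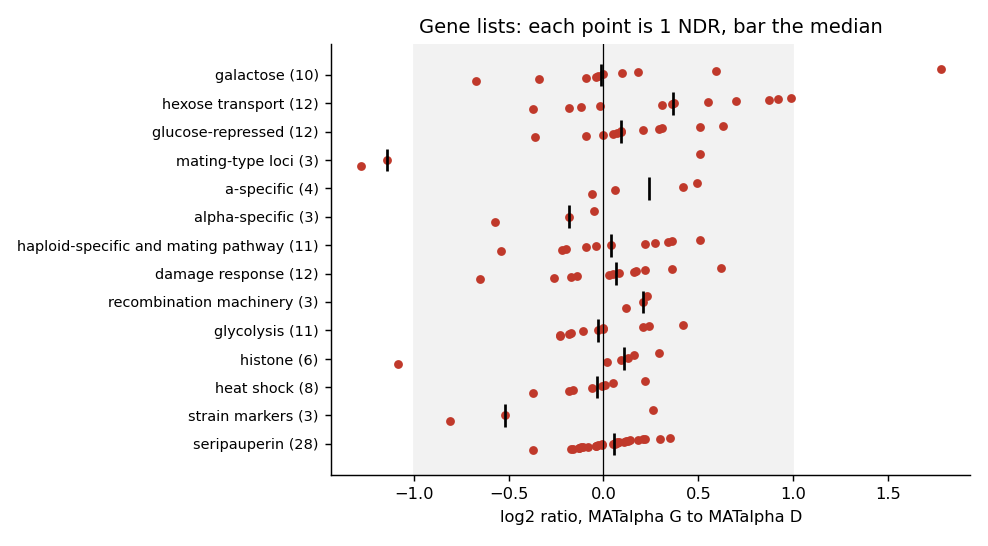
Log2 ratio of MATα G to MATα D at each NDR of 14 gene lists (points, with the number of NDRs at the minimum level in parentheses) and the median of each list (bars), with the zone under 2-fold shaded. GAL7 (1.78), the α promoters of the mating-type loci (-1.14 and -1.28) and HTB1 (-1.08) lie outside it.

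Chromosome ends in MATα G were close to those in MATα D and below those in MATa cells. Of 91 NDRs under 10 kb from an end, 74 were at the minimum level, with 11 (14.9%) above all 17 tables, 24 (32.4%) below and a median ratio of -0.23. The same median was -0.19 in MATα D, 1.04 in MATa G and 0.44 in MATa D over the same NDRs, and each of the 17 tables against the others gave between -0.20 and 0.46. Under 5 kb the MATα G median was -0.76 over 22 NDRs and at 5 to 10 kb it was -0.07 over 52. Against MATα D, the median over NDRs under 10 kb was -0.01 and none was past 2-fold. The extremes were 0.68, near *MAL32*, and -0.71, at the tRNA gene YNCB0001W.

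**Figure D5:**
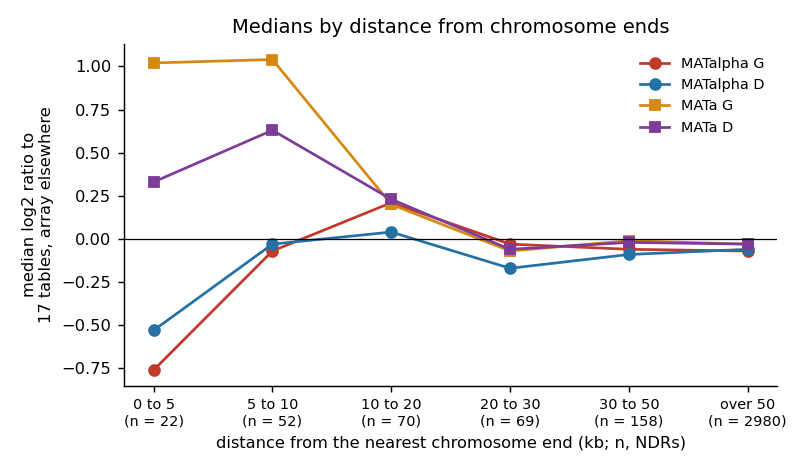
Median log2 ratio to the 17 tables with the array elsewhere, by distance of the NDR from the nearest chromosome end (kb, with the number of NDRs), for the 4 MAT tables. Under 5 kb MATα G is at -0.76 and MATα D at -0.53, whereas both MATa tables are above 0, and all 4 lie near 0 beyond 20 kb.

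The lowest ratios in the table were at the ends themselves. The NDR near YCL075W at the left end of chromosome III had 240 in MATα G and 243 in MATα D, 880 in MATa G and 654 in MATa D, and 2625 to 16859 in the 17. YNR077C on XIV had 29.9 in MATα G and 35.4 in MATα D against 512 to 4157, and YOL166W-A on XV had 64 and 61.9 against 415 to 1015. At all 3 the 4 MAT tables were below every other table, and the MATα tables were the lowest. The 200-base windows near YCL075W and at YNR077C hold 0 GC sites and that of YOL166W-A holds 2, against a median of 7 over all NDR windows. The NDR near *IMD2* on VIII, 5.77 kb from the end, had 393 in MATα G, 384 in MATα D, 913 in MATa G and 1380 to 4728 in the 17. Sequences at chromosome ends are repeated between chromosomes, so reads there are uncertain in origin. On the high side, an NDR near YAR068W on chromosome I had 37.4 in MATα G and 25.8 in MATα D against 7.48 to 15.2, and those of *MPH2* and *MPH3*, nearly identical maltose permeases, had 123 and 105 against highest values of 80.0 and 74.8.

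Away from chromosome III, the NDRs farthest above the 17 tables were those of *GAL10* with *GAL1*, *AFB1* and *MF(ALPHA)1*, given above, and of *NCL1*, a tRNA methyltransferase (34.7 in MATα G, 39.8 in MATα D and 6.66 to 12.4 in the 17), *UBC4*, a ubiquitin-conjugating enzyme (59.6, 50.2 and 16.3 to 24.2), *RPR1*, the RNA of RNase P (53.3, 56.7 and 14.2 to 22.4), *HEF3* (20.6, 23.4 and 5.33 to 9.14), YHR212W-A (26.8, 21.3 and 6.82 to 11.9) and the tRNA gene YNCP0024C (46.5, 35.6 and 9.96 to 19.8). At each of them MATα D was also above the 17. Below the 17 tables, apart from chromosome ends, were *GTR1* (18.9 in MATα G, 31.6 in MATα D and 56.9 to 131), *TIF4632* (5.82, 3.50 and 18.1 to 30.1), *MCM16* (6.53, 8.62 and 18.8 to 32.8), *AUR1* (12.4, 18.6 and 34.1 to 46.1) and *CDC14* (24.0, 20.5 and 62.5 to 219). MATα D was below the 17 at each of these too. The NDRs were picked by their distance from the 17 in MATα G. At *HEF3*, YHR212W-A and the NDR near YAR068W, the median of the 17 was under 10 (6.49, 8.88 and 9.75). At *TIF4632* and *MCM16*, MATα G was under 10. These NDRs reached the minimum level only through the side where they are high.

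The NDRs with the highest base means in MATα G lay far from the array, at the ribosomal DNA on XII (1365 in MATα G and 1092 in MATα D), at *TLD1* (960 and 1090), near YKL097C (793 and 845), at *ERG1* (709 and 813) and at *GIC2* (701 and 648). The first of these is one of many repeats. The level at *YCR043C* next to the array, 678, was thus below 5 NDRs far from the array. *GIC2* was itself above the 17 tables, which had 300 to 588.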

How the data were processed

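MeDIP libraries (genomic DNA, NextSeq 2000) of MATα G and its control without LacO were used as the table the authors deposited, beside 20 further tables of the series. According to the submitters' processing notes and the study's methods, the authors trimmed reads with fastp 0.23.2, aligned them to sacCer3 with BWA 0.7.17, removed duplicates with Picard, counted reads per NDR with featureCounts 2.0.3 and compared targeted with control strains with DESeq2 1.38.0. The base mean of the deposited tables is a signal value, which the authors obtained by dividing the reads of an NDR by size factors and averaging over all libraries of a comparison. The other 6 deposited columns hold the authors' own comparison (log2 fold change, its standard error, Wald statistic, p-value, adjusted p and its -log10) and were not used, so no difference between targeted and control strains is given. Library totals are not in the values used, so depth and counting error per library are unknown.

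Each table was scaled to MATα G by the median ratio over NDRs of at least 10 in both. Log2 ratios had a pseudocount of 1 and a minimum mean of 10, and 2-fold was the threshold. Because each table gives 1 mean, no test was run. Distances were taken from the midpoint of TAF2 (III, 203285), local meant within 30 kb, near an end meant under 10 kb, and a gene belonged to an NDR when it started within 1 kb of it. Deposited NDR IDs give a start only. All starts lay within the R64 chromosomes, and sequences and gene names are from RefSeq R64. Named NDRs were those within 10 kb of TAF2, at RE, HML and HMR, the 10 highest and 10 lowest in MATα G against MATα D, the 10 on other chromosomes farthest above and below the 17 tables, NDRs of gene lists past 2-fold and the 5 highest base means. The other genes were named after their values were seen. The members, the gene lists and these rules were chosen with earlier results of these data known. No column lacked a sample or group. MATa D lacks 4 of the NDRs, which are missing from its table only. Scaling and the 2-fold rule were tested on simulated data. Python 3.11.15, numpy 2.4.6, pandas 2.3.3 and matplotlib 3.10.9 were used.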

Additional observations from a re-analysis of the deposited data

How the results depend on the processing

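Of 32 alternatives, 22 left the count within 1.5 times, or the median within the spread of the 17 tables, of the value given. With a pseudocount of 5, 2 NDRs were at least 2-fold higher and 6 lower in MATα G than in MATα D, and 0 were higher in both mating types. With no minimum level these counts were 34 and 86, and 1709 NDRs were below all 17 tables (35.4% of 4828). The median local ratio was 1.43 within 10 kb and 0.90 against the 2 TRP2 tables alone. Against the 17 tables, the median at chromosome ends was -0.02 when ends reached to 30 kb, and against MATα D it was then 0.05, so its sign is not settled. Against only the tables of strains induced for 2 h, 905 of 3335 NDRs (27.1%) were above all of them. Scaling by the share of the summed base mean put 735 NDRs above and 886 below the 17 tables. Leaving out each of the 17 tables in turn, chosen after seeing the data, gave 731 to 808 NDRs above and 950 to 1047 below, a local median of 0.96 to 0.97 and an end median of -0.24 to -0.22. No paired analysis was possible because the values used are 1 mean per table, with no column per replicate, and for the same reason no replicate could be left out. The cause of these shifts was not tested beyond what each setting does by construction. NDRs near the minimum level limit every 2-fold count.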
